A study of Homo sapiens with 6 samples.

Results

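The SPARC family is a group of secreted, calcium-binding proteins of the extracellular matrix, and its expression was examined here in HuCCT1 cells with and without CD90. The 8 genes SPARC, SPARCL1, SMOC1, SMOC2, SPOCK1, SPOCK2, SPOCK3 and FSTL1 were taken by symbol, each 1 row of a table of 20811 genes. The family was chosen by values of the same contrast, the RPM of its genes in the CD90+ against the CD90- columns, so the members' differences between the lines are given below as a description, with no test. HuCCT1 is a human intrahepatic cholangiocarcinoma (iCCA) cell line, a tumor line of the bile duct epithelium. HuCCT1/CD90+ cells were transduced with the lentivirus human THY1-CMV-GFP, THY1 being the gene of CD90. HuCCT1/CD90- cells received Lenti-CMV-GFP-2A-Puro-Blank, and both viruses were used at an MOI of 40. Both lines therefore carried a GFP lentivirus under the CMV promoter and grew in RPMI with 10% fetal bovine serum, and 3 libraries of total RNA represented each line. Each line is 1 transduced line, and whether it was a clone or a pool is not given in the sources used here, so that THY1 and any other difference between the lines cannot be told apart. The study speaks of biological replicates in general, without saying for these libraries that they came from separate cultures, so p-values measure the spread between these libraries, which may be technical. The lines are called CD90+ and CD90- cells below.

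Matricellular proteins sit in the matrix without being its scaffold and tune how cells adhere, migrate and respond to growth factors. SPARC (osteonectin) binds fibrillar and basement membrane collagens, and it is known in many carcinomas as a product of the stroma and of tumor cells with mesenchymal traits. SPARCL1 (hevin) is its closest relative, SMOC1 and SMOC2 are basement membrane proteins that antagonize BMP signaling, and SPOCK1, SPOCK2 and SPOCK3 (testicans 1 to 3) are proteoglycans of which some restrain matrix metalloproteinases. FSTL1 is a more distant relative, a follistatin-like glycoprotein that binds BMP4 and acts on innate immune receptors.

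Gene positions were taken from the GENCODE 29 annotation (GRCh38), matched by symbol. SPARC lies on the minus strand at chr5:151661096-151687165, and SPOCK1, on the same strand, at chr5:136975298-137598379. SMOC1 lies on the plus strand at chr14:69854131-70032366, FSTL1 on the minus strand at chr3:120392293-120451253 and SPOCK3 on the minus strand at chr4:166733384-167234796. SPARCL1 (chr4:87473335-87531061, minus), SMOC2 (chr6:168441151-168673445, plus) and SPOCK2 (chr10:72059035-72089032, minus) complete the family. Each gene was read over 1 short amplicon (AMPL10760438 for SPARC, AMPL4622268 for SMOC1, AMPL30265253 for SPOCK1, AMPL31559887 for SPOCK3, AMPL13545359 for FSTL1). Where in the gene an amplicon lies is not known here, so a value can depend on which isoform is made.

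The sequences upstream of a start of SPARC and of SMOC1 are shown because these members had the largest fall and the largest rise of the family. They come from RefSeq (GRCh38.p14), in which 7 of the 8 members had an entry, and capitals mark every match, on either strand, to the purine-rich GGAGGA, to the GC box core GGGCGG, to the CCAAT box, to the TATA sequence TATAAA and to the E-box CAGGTG. The motifs were chosen with the sequences in view. For SPARC the window overlaps exons of other GENCODE transcripts, so only the 30 bases with the densest GGAGGA are printed, 126 to 97 bases before the start at chr5:151687012-151687041 (minus strand). For SMOC1 the 250 bases before the start are printed, chr14:69879166-69879415 (plus strand). This window lies inside the GENCODE span of SMOC1 given above, so it is upstream of the RefSeq start and not of the whole gene.
SPARC: ggccgggggaaGGAGGAgacaGGAGGAGGA
SMOC1: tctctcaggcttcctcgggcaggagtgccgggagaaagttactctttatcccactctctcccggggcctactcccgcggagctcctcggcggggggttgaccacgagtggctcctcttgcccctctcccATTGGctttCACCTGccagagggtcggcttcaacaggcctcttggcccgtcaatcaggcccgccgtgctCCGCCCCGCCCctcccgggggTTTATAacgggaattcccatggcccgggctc
The 250 bases before the SPARC start held 5 GGAGGA, 3 of them in the stretch shown and 2 of these overlapping, and none of the other motifs. The SMOC1 window held no GGAGGA but 2 GGGCGG, which overlap, 1 CCAAT box, 1 TATA sequence and 1 E-box, all of them read on the opposite strand. Of 35116 promoter windows of this length, 31.8% held at least 1 GGAGGA, 42.6% GGGCGG, 32.0% CCAAT, 10.7% TATAAA and 17.5% CAGGTG. These shares do not say how common a count of 5 is. GGAGGA was also in windows of FSTL1 (2), SMOC2 (2), SPOCK2 (up to 2) and SPOCK3 (up to 1), and not in that of SPARCL1. GC content was 59.2% for SPARC and 65.6% for SMOC1, with 7 and 17 CpG, beside medians of 58% and 11 over all windows. A match is a run of letters and not a bound site.

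The libraries held 8587634 to 10551516 reads on genes, and values are RPM, the reads of a gene scaled to the same library total. At this depth 3 reads, taken as the floor, correspond to 0.284 to 0.349 RPM, and intervals and floors cover counting error only, since the panel counts PCR products and no molecular identifiers. THY1 was read 0, 1 and 0 times in CD90- cells and at 46.6, 51.8 and 73.8 RPM in CD90+ cells, as the labels of the lines require. Between the lines, 15.1% of all genes were called, meaning a limma adjusted p up to 0.05 with a change of 1.5-fold or more, 7.59% as higher and 7.49% as lower in CD90+ cells. Among genes whose mean reached 1 RPM the share was 24.1%. The median log2 fold change over all genes was 0.00.

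SPARC was the family's most abundant transcript in CD90- cells and had no read in CD90+ cells. The 3 CD90- libraries held 548, 600 and 590 RPM (5787, 5605 and 6078 reads), a mean of 579 ± 27.2 RPM (SD, n = 3). All 3 CD90+ libraries held 0 reads, so the mean was at least 1658-fold lower, computed against the floor of 3 reads per library. In CD90- cells only 215 of all genes had a higher mean. On the log2(RPM + 1) scale the difference was -9.18 (SE 0.038), rank 1 among all falls. As every CD90+ value was 0, this size depends on the offset, and the SE holds no spread of CD90+ cells. In bulk RNA, fewer cells that make a transcript and less RNA in each cell cannot be told apart. SPARCL1, which is the member closest to SPARC in structure, was at 0 reads in all 6 libraries.

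FSTL1, the follistatin-like member, was the most abundant family transcript left in CD90+ cells. It held 355, 302 and 319 RPM in CD90- cells (325 ± 27.5, SD, n = 3) and 198, 161 and 165 RPM in CD90+ cells (175 ± 20.7). Each CD90+ library was below each CD90- library, and the mean was 1.86-fold lower. The log2 difference was -0.90 (SE 0.11), rank 1192 among all falls. FSTL1 thus stayed among the abundant transcripts, above 97.5% of genes in CD90- cells and 94.2% in CD90+ cells.

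Of the testicans, SPOCK1 and SPOCK3 were read in both lines and both were lower in every CD90+ library. SPOCK1 (testican 1) held 43.5, 72.2 and 71.8 RPM in CD90- cells (62.5 ± 16.5, SD, n = 3) and 0.858, 1.16 and 1.19 RPM in CD90+ cells (1.07 ± 0.186), a mean 58.3-fold lower. From pooled reads (1874 and 29) the ratio was 58.04, with a 95% counting interval of 40.3 to 86.9. A low but countable level thus remained, 8 to 11 reads per library, unlike for SPARC. SPOCK3 (testican 3) was a weak transcript in both lines. It held 5.02, 6.31 and 10.2 RPM in CD90- cells (7.17 ± 2.69) and 1.39, 1.51 and 1.63 RPM in CD90+ cells (1.51 ± 0.117), a mean 4.74-fold lower. Its pooled reads gave a ratio of 4.75 (counting interval 3.39 to 6.81). The log2 differences were -4.90 (SE 0.24) for SPOCK1 and -1.65 (SE 0.25) for SPOCK3. SPOCK2 (testican 2) had 0 reads in all 6 libraries.

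SMOC1, the basement membrane BMP antagonist, was the member that was higher in CD90+ cells. It held 0.569, 0.321 and 0.291 RPM in CD90- cells (6, 3 and 3 reads) and 17.6, 14.3 and 10.3 RPM in CD90+ cells (164, 123 and 95 reads). The libraries of the lines did not overlap, and the mean was 35.7-fold higher (0.394 ± 0.153 against 14.1 ± 3.64 RPM, SD, n = 3). The 12 reads of CD90- cells leave this ratio wide, with a counting interval of 20.05 to 69.2 around 35.4 from pooled reads. The log2 difference was 3.41 (SE 0.21), rank 93 among all rises. SMOC2, its paralog, had 1 read in CD90- replicate 1 and none in the other libraries.

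**Figure D1:**
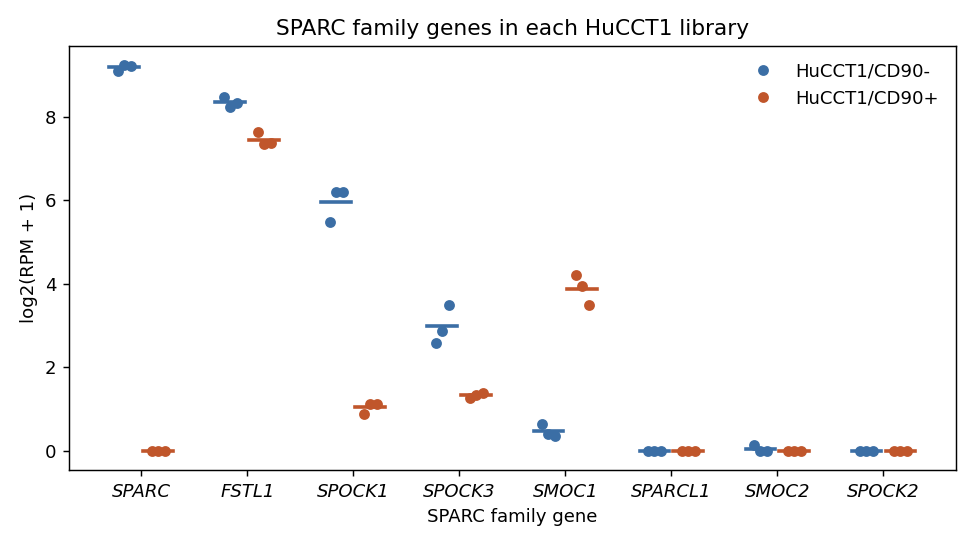
Level of each family member (x axis) in each library as log2(RPM + 1) (y axis), with 1 point per library, CD90- in blue and CD90+ in orange, and a bar at the mean of each line (n = 3). SPARC is high in the CD90- libraries and at 0 in the CD90+ libraries, SPOCK1, SPOCK3 and FSTL1 are lower without overlap, SMOC1 is higher without overlap, and SPARCL1, SMOC2 and SPOCK2 lie at or under the floor of 3 reads.

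Accounted over all 8 members, 5 were above the floor in at least 1 line and 3 were at the floor in both. Of the 8, 4 were lower and 1 was higher without overlap of the libraries. Among all genes 17.7% were lower and 17.3% higher without overlap, 35.0% in all. Since the members were chosen with this difference known, nothing is read from the comparison of these counts.

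Summed over the 8 genes, the family stood at 975 ± 19.4 RPM in CD90- cells against 191 ± 23.3 RPM in CD90+ cells (SD, n = 3), 5.10-fold lower. SPARC made up 57.5 to 61.2% of the family's reads in CD90- cells and none in CD90+ cells. Without SPARC the sum was 395 ± 13.0 against 191 ± 23.3 RPM, 2.07-fold lower, and this part was mostly FSTL1. FSTL1 accounted for 30.8 to 37.3% of the family's reads in CD90- cells and for 90.4 to 92.6% in CD90+ cells. SMOC1 came second in CD90+ cells, with 5.80 to 8.06%. The order of levels was thus SPARC, FSTL1, SPOCK1, SPOCK3 and SMOC1 in CD90- cells, and FSTL1, SMOC1, SPOCK3 and SPOCK1 in CD90+ cells. No neighbors in either order overlapped in their libraries. These orders compare amplicon reads, which carry no length correction and can differ in amplification between genes.

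**Figure D2:**
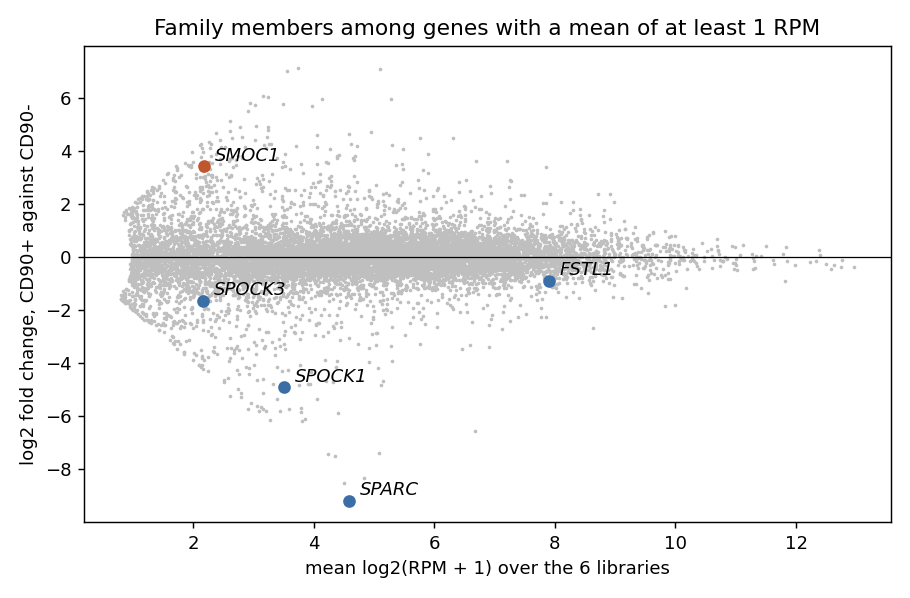
Log2 fold change (CD90+ against CD90-, y axis) against the mean log2(RPM + 1) over the 6 libraries (x axis) for genes whose mean reached 1 RPM (gray) and the 5 family members among them (named). SPARC lies lowest of all points at -9.18, SPOCK1 at -4.90, SPOCK3 at -1.65 and abundant FSTL1 at -0.90 lie below 0, and SMOC1 lies above 0 at 3.41.

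The genes whose levels were most like those of each member were found by the Euclidean distance in log2(RPM + 1) over the 6 libraries. The distances share their libraries with the choice of members and are a description. For SPARC the closest was SULF1, an extracellular heparan sulfate 6-O-endosulfatase, at 434 ± 13.5 RPM in CD90- cells and 0.188 ± 0.139 RPM in CD90+ cells (distance 0.87). SELP (P-selectin, 515 against 0.586 RPM, distance 1.21) and the matrix protein gene MXRA5 (275 against 0.555 RPM, distance 2.27) followed. For SPOCK1 the closest were VCAN, which encodes the matrix proteoglycan versican (67.6 against 0.664 RPM, distance 0.81), the complement protease gene C1R (54.2 against 1.70 RPM, 0.91) and SESTD1 (43.7 against 0.812 RPM, 0.94). BDKRB1, a bradykinin receptor gene, was closest to SPOCK3 at 6.70 against 1.43 RPM (distance 0.40), ahead of SYNM (0.61) and PTPN22 (0.62). For SMOC1 these were PRRG4 (0.226 against 11.7 RPM, 0.61), SFTA2 (0.428 against 12.8 RPM, 0.63) and the serine protease gene TMPRSS4 (0.396 against 15.4 RPM, 0.64). For FSTL1, whose difference was moderate, they were HMGB3 (289 against 176 RPM, 0.32), ST13 (295 against 176 RPM, 0.36) and the laminin chain gene LAMC1 (374 against 169 RPM, 0.37).

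Gene positions had no part in the choice of the members, and the genes next to SPARC on chromosome 5 were read in the same libraries. G3BP1, a stress granule protein gene 118 kb from SPARC between gene midpoints, held 268 ± 8.55 RPM in CD90- cells and 274 ± 31.7 RPM in CD90+ cells (SD, n = 3, adjusted p = 1.0 from limma). ATOX1, a copper chaperone gene 83.3 kb from SPARC, held 74.8 ± 15.7 and 65.3 ± 6.33 RPM (adjusted p = 0.58 from limma). Both nearest expressed genes on that side were thus read at a like level in both lines. GLRA1, the next on the same side, had no reads. On the other side FAT2 and SLC36A2 were at the floor in both lines and SLC36A1 held 1.03 and 1.78 RPM (adjusted p = 0.21 from limma). Over the 20 closest genes whose mean reached 10 RPM the median log2 difference was 0.06, and it ranged from -0.64 to 2.17. Within 3 Mb of SPARC, 34 genes reached a mean of 1 RPM, of which 6 were called lower and 5 higher, where 12.1% and 12.0% of all genes at that level were. Those lower by most were ARSI (-4.08), PDGFRB (-1.94) and CD74 (-1.15), and GPX3 was higher by most (2.17), all on the log2 scale, picked here as the extremes after their values were seen.

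**Figure D3:**
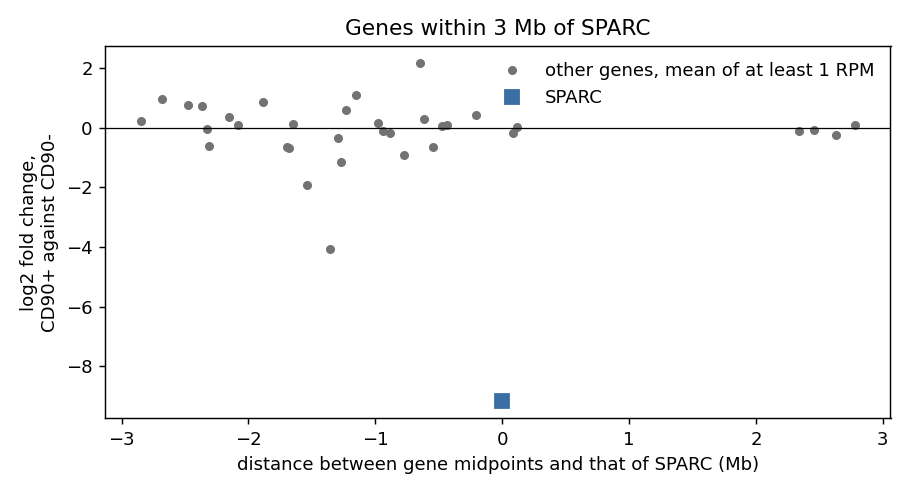
Log2 fold change (CD90+ against CD90-, y axis) of SPARC and of the 34 genes within 3 Mb whose mean reached 1 RPM, against the distance between gene midpoints in megabases (x axis). SPARC stands at -9.18, and its neighbors lie on both sides of 0, from -4.08 (ARSI) to 2.17 (GPX3).

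The surroundings of the other members were described likewise by the median over the 20 closest genes whose mean reached 10 RPM. Of all genes at that level 10.4% were called lower and 11.3% higher. Around SPOCK1, also on chromosome 5, it was -0.04, with 2 of 20 called lower and 0 higher. Around SMOC1 it was 0.35 (1 lower, 7 higher) and around SPOCK3 0.31 (2 lower, 6 higher). Around FSTL1 it was 0.65 (1 lower, 7 higher), while FSTL1 itself was at -0.90.

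Genes around the family were then counted in 7 lists of 88 genes, none of them members: binding partners, enzymes and pathways of its proteins, and, in 2 lists, other follistatin-like and matricellular genes. Of the 88, 30 were called lower (34.1%) and 4 higher (4.55%) at the thresholds above, where 7.49% and 7.59% of all genes were. With the replicate number as a block these counts were 18 and 4, beside 4.86% and 5.24% of all genes. The lists were chosen with earlier results of these data known, so the counts are a description.

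**Figure D4:**
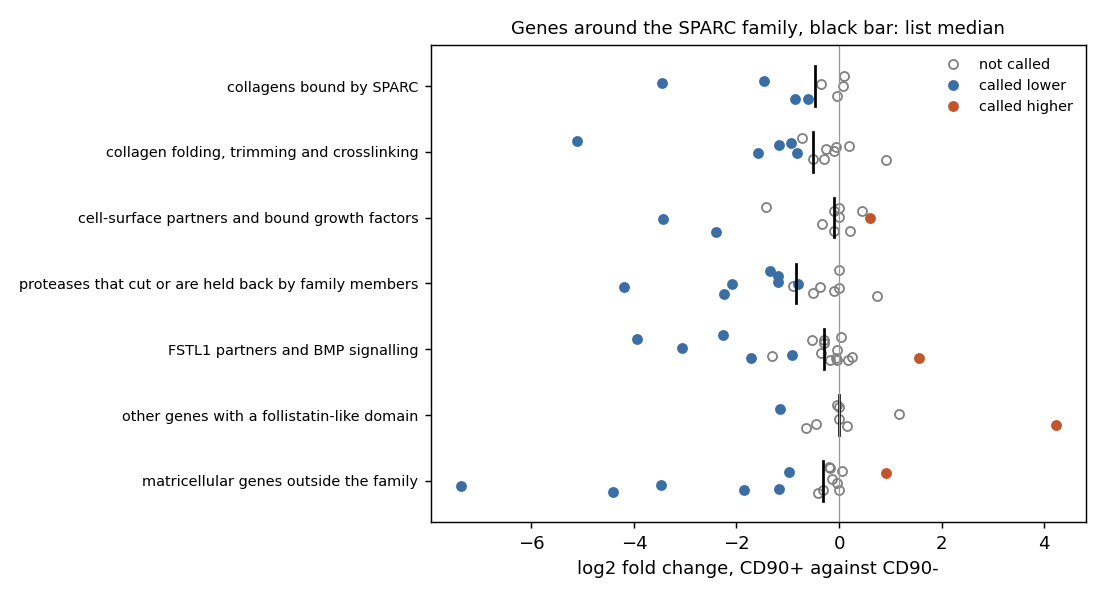
Log2 fold change (CD90+ against CD90-, x axis) of each gene of the 7 related lists (rows), with 1 point per gene, called genes filled (lower in blue, higher in orange) and a black bar at the list median. Filled points lie mostly left of 0, with 30 genes called lower and 4 higher.

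Of the 8 collagen genes whose products SPARC binds, 4 fell and 0 rose, with a median log2 difference of -0.47 (-0.73 over the 6 above the floor). COL5A2, a chain of fibril-nucleating collagen V, fell from 98.3 ± 2.07 to 8.22 ± 1.56 RPM (SD, n = 3), a log2 difference of -3.44 (SE 0.13, adjusted p = 0.00066 from limma). The other 3 were weakly read. COL4A1, a basement membrane chain, fell from 3.04 to 0.440 RPM (adjusted p = 0.010). COL3A1 (0.847 RPM) and COL1A2 (0.521 RPM) had no reads in CD90+ cells, at least 2.43-fold and 1.49-fold lower (adjusted p = 0.041 and 0.031). Only COL5A2 kept its call with the replicate block (adjusted p = 0.019), the others reaching 0.067, 0.10 and 0.090. Leaving out any 1 library other than CD90- replicate 2 left 2 of the 4 calls, those of COL5A2 and COL4A1. COL1A1, the main chain of collagen I, held 13.5 ± 2.21 and 14.2 ± 0.186 RPM (adjusted p = 0.82 from limma).

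Of 13 genes that fold, trim and crosslink collagen, 5 fell and 0 rose (median -0.51). ADAMTS2, which removes the N-propeptide of procollagens, fell from 40.9 ± 12.5 RPM to the floor (at least 117-fold lower, adjusted p = 0.0012 from limma). PLOD1, a lysyl hydroxylase, fell from 385 ± 76.8 to 127 ± 8.52 RPM (log2 difference -1.58, adjusted p = 0.0060). SERPINH1, the collagen chaperone HSP47, fell from 373 ± 21.6 to 210 ± 4.80 RPM (-0.83, adjusted p = 0.0018). The crosslinking enzymes LOXL2 (2.54 against 0.602 RPM, adjusted p = 0.035) and LOXL1 (10.7 against 5.14 RPM, adjusted p = 0.013) were at low levels. With the replicate block LOXL1 reached an adjusted p of 0.050458. LOXL2 lost its call without any 1 library other than CD90+ replicate 2 (adjusted p = 0.069 to 0.12) and with an offset of 0.1 RPM (0.066). Without CD90- replicate 2 or 3, 3 of the 5 calls were left. PLOD3, another lysyl hydroxylase gene, held 21.3 ± 7.19 and 39.5 ± 3.25 RPM, an adjusted p of 0.093 from limma, 0.0015 from edgeR and 0.00027 from DESeq2, so that 1 gene of the list was higher by the count tools.

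Among 11 surface partners of SPARC and growth factors it binds, 2 fell and 1 rose, beside a median of -0.09. VCAM1, an adhesion receptor bound by SPARC, fell from 9.32 ± 1.46 to 0.962 ± 0.285 RPM (log2 difference -2.40, adjusted p = 0.0023 from limma), and the integrin chain gene ITGB3 from 20.7 ± 3.93 to 1.01 ± 0.451 RPM (-3.44, adjusted p = 0.0020). PDGFB, a growth factor chain, rose from 101 ± 6.66 to 155 ± 18.0 RPM (0.61, adjusted p = 0.026), a call that was lost without any 1 library other than CD90+ replicate 3. The integrin chain genes ITGB1 (27.8 against 26.3 RPM, adjusted p = 0.91) and ITGAV (127 against 101 RPM, adjusted p = 0.076), the kinase gene ILK (107 RPM in both lines, adjusted p = 1.0) and PDGFA (23.5 against 27.6 RPM, adjusted p = 0.41) did not pass. ITGB5 passed the p-value but not the fold change (74.9 against 102 RPM, adjusted p = 0.032). VEGFA, a growth factor that SPARC can bind, varied within CD90- cells (245 ± 126 against 83.2 ± 24.8 RPM, adjusted p = 0.17 from limma, 0.00023 from edgeR and 0.012 from DESeq2), and without CD90- replicate 1 limma gave 0.043. STAB1, the scavenger receptor that takes up SPARC, had at most 5 reads per library, and STAB2 had none.

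Of 14 proteases that cut family members or are restrained by testicans, 7 fell and 0 rose (median -0.85, and -1.19 over the 11 above the floor). MMP1, the interstitial collagenase, fell from 146 ± 41.3 to 6.89 ± 1.60 RPM (log2 difference -4.20, adjusted p = 0.0023 from limma). The collagenase gene MMP13 fell from 5.95 to 0.618 RPM (-2.09, adjusted p = 0.015). The membrane-type metalloproteinases MMP24 (60.9 against 12.0 RPM, adjusted p = 0.015), MMP15 (363 ± 34.1 against 143 ± 16.3 RPM, adjusted p = 0.0044) and MMP14 (325 against 137 RPM, adjusted p = 0.032) fell too, as did the cathepsin genes CTSB (220 against 93.7 RPM, adjusted p = 0.033) and CTSL1 (95.3 against 54.3 RPM, adjusted p = 0.0033). The gelatinase genes MMP2 and MMP9 and the membrane-type gene MMP16 were at the floor in both lines. MMP7, matrilysin, held 18.9 ± 5.47 and 32.7 ± 11.7 RPM, with an adjusted p of 0.26 from limma but 0.012 from edgeR and 0.0075 from DESeq2. With the replicate block 4 of the 7 calls were left, MMP24 (adjusted p = 0.064), MMP14 (0.078) and CTSB (0.054) having lost theirs. Leaving out CD90+ replicate 1 or 2 left 4, and leaving out CD90+ replicate 3 left 3. MMP13 was not called without CD90- replicate 1 or 3 or CD90+ replicate 2 or 3 (adjusted p = 0.051 to 0.063), MMP14 and CTSB without CD90- replicate 3 or any 1 CD90+ library (0.083 to 0.11), and MMP24 without CD90- replicate 2 or CD90+ replicate 1 or 3 (0.058 to 0.064).

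Of 18 genes of FSTL1 partners and BMP signaling, the pathway that FSTL1 and the SMOC proteins restrain, 5 fell and 1 rose (median -0.29). CD14, a co-receptor of innate immunity that FSTL1 is known to engage, fell from 80.8 ± 10.1 to 4.32 ± 0.195 RPM (log2 difference -3.94, adjusted p = 0.00037 from limma). The BMP target genes ID1 (511 ± 112 against 106 ± 18.8 RPM, -2.25, adjusted p = 0.0064) and SMAD6, an inhibitory SMAD (68.6 against 7.69 RPM, -3.06, adjusted p = 0.0053), fell, as did the ligand genes BMP2 (13.5 against 3.38 RPM, adjusted p = 0.016) and BMP4 (332 against 171 RPM, adjusted p = 0.049). The receptor gene BMPR1B rose from 0.228 to 2.67 RPM (adjusted p = 0.010), with 2, 1 and 4 reads in the CD90- libraries. With an offset of 5 RPM its log2 difference was 0.55, under the 1.5-fold limit. With the replicate block BMP2 and BMP4 reached adjusted p = 0.053 and 0.086, so that 3 calls of a fall were left, as without CD90- replicate 3 or CD90+ replicate 1 or 2. BMP4 was not called without CD90- replicate 2 or CD90+ replicate 3 either (adjusted p = 0.081 and 0.15), nor with an offset of 5 RPM (0.0502) or with trend and robust settings of eBayes (0.056). The FSTL1 receptor gene DIP2A (49.0 against 47.2 RPM, adjusted p = 1.0 from limma) and TLR4 (32.4 against 38.8 RPM, adjusted p = 0.54) did not pass. Nor did the BMP target genes ID2 (18.7 against 14.5 RPM, adjusted p = 0.23), ID3 (3.50 against 0.829 RPM, adjusted p = 0.11) and SMAD7 (56.5 against 45.9 RPM, adjusted p = 0.24). ID3 was nonetheless 4.22-fold lower without overlap of the libraries, with an adjusted p of 0.0023 from edgeR and 0.0027 from DESeq2.

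Among 9 other genes with a follistatin-like domain, 1 rose and 1 fell, with a median of 0.00 over all 9, of which 4 were at the floor in both lines, and of -0.46 over the other 5. FST, the activin-binding follistatin, rose from 8.30 ± 2.19 to 170 ± 3.56 RPM, 20.4-fold (log2 difference 4.23, adjusted p = 0.0010 from limma). FSTL3, its relative that also binds activin, fell from 151 ± 25.5 to 66.6 ± 1.62 RPM (-1.16, adjusted p = 0.0093). IGFBP7 (12.4 ± 4.98 against 27.7 ± 3.94 RPM) had an adjusted p of 0.10 from limma but passed in edgeR (0.00067) and DESeq2 (5.3e-05). FST and FSTL1 were thus at 170 and 175 RPM in CD90+ cells. Of the matricellular genes outside the family, 6 of 15 fell and 1 rose, with a median of -0.30 over all 15 and of -1.17 over the 9 above the floor in at least 1 line. POSTN (periostin, 24.2 against 1.25 RPM, adjusted p = 0.0010 from limma), SPP1 (osteopontin, 31.8 against 0.480 RPM, adjusted p = 0.0034), TNC (tenascin C, -7.38, adjusted p = 0.00040) and TGFBI (-1.85, adjusted p = 0.0085) fell by most on the log2 scale. CTGF (adjusted p = 0.027) and NOV (adjusted p = 0.041) fell too. CYR61, of the same CCN family as these, rose from 330.5 ± 16.2 to 625 ± 26.0 RPM (0.92, adjusted p = 0.0014). With the replicate block 3 falls were left, TGFBI (adjusted p = 0.063), CTGF (0.090) and NOV (0.050254) having lost the call. NOV lost its call whichever of the 6 libraries was left out (adjusted p = 0.052 to 0.12), and CTGF lost its call for any library but CD90+ replicate 1 (0.078 to 0.090). THBS1, thrombospondin 1, was abundant in both lines (3294 and 3060 RPM, adjusted p = 0.79 from limma).

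Markers of cell types were read beside these results. Of 6 biliary epithelial markers 2 were called higher (EPCAM and KRT18) and 0 lower, and their summed level was 8199 to 9306 RPM in CD90- cells and 10939 to 11677 RPM in CD90+ cells. Both lines held the defining keratin transcripts, KRT7 at 3433 and 3656 RPM and KRT19 at 3228 and 4146 RPM. Of 7 fibroblast markers 5 were called lower, and their sum was 41.8 to 65.3 RPM in CD90- cells and 20.4 to 24.7 RPM in CD90+ cells, with 4 at the floor there. With the replicate block 2 of the 5 calls were left, LUM and PDGFRB, while COL1A2 (adjusted p = 0.090), COL3A1 (0.10) and DCN (0.086) lost theirs. Leaving out CD90- replicate 3 or any 1 CD90+ library left 1 call, without CD90- replicate 1 there were 2 and without CD90- replicate 2 there were 3. LUM lost its call whichever of the 6 libraries was left out (adjusted p = 0.057 to 0.13). SPARC alone was at 579 RPM in CD90- cells. Of 5 endothelial markers 1 was called lower, CDH5 (16.6 against 0.293 RPM), their sum was 14.9 to 23.4 RPM in CD90- cells and 1.29 to 1.86 RPM in CD90+ cells, and VWF and KDR were at 0 in CD90- cells. Of 4 leukocyte markers 2 were called higher, CD68 (50.8 against 92.2 RPM) and CD79A (0 against 1.08 RPM), with sums of 46.5 to 55.9 and 85.0 to 101 RPM, and PTPRC was at the floor in both lines. The part of these markers in the values of SPARC, SPOCK1 and the collagens was not tested.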

How the data were processed

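The Ion AmpliSeq Transcriptome panel amplified cDNA of each sample, and sequencing was on an Ion GeneStudio S5 Prime. Reads of each amplicon were counted in Torrent Suite (ampliSeqRNA plugin), and the authors deposited them as RPM, with 1 amplicon per gene and no filter. Of the genes, 3805 were at 0 in all 6 libraries. Per the labels, the build was hg19 and the Transcriptome Analysis Console was used. No column was left unused. Values were whole multiples of 1 read (tolerance 0.02) for 100% of entries, so reads were recovered. The 6 libraries were grouped by their labels, and libraries of the same line differed pairwise by more than sampling noise.

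Differences were tested with limma 3.58.1 in R 4.3.3 (lmFit and eBayes, two-sided) on log2(RPM + 1) over all 20811 genes, with Benjamini-Hochberg adjustment, and all adjusted p-values without another name are from this fit. This scale understates the change of weak genes. edgeR 4.0.16 and DESeq2 1.42.0 on the recovered reads, offsets of 0.1 and 5 RPM, a minimum mean of 1 RPM, quantile normalization, other eBayes settings, a replicate block and each library left out were alternatives. Symbols matched GENCODE positions for 19459 genes (93.5%).

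Over all genes, deviations of the 3 same-numbered pairs of libraries from their line means correlated with r of 0.18 to 0.32, and the 6 other pairs with -0.29 to 0.07. On this check only, since no label explains the numbers, libraries of 1 number were treated as pairs in the replicate block alternative. The main fit, and so the adjusted p-values without another name, had no pairing.

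The members and lists were chosen with earlier results of these data known. The genes named are the members, THY1, the 4 genes called with the largest change in each direction of each list, all surface partners, the 3 genes nearest in pattern to each member and the 3 nearest to SPARC on either side. The called genes then left over in a list, other uncalled list genes and markers were named after their values were seen. One further biliary epithelial marker, outside the 6 counted, is not reported here.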

Additional observations from a re-analysis of the deposited data

How the results depend on the processing

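The family's pattern, 4 members lower and 1 higher by at least 1.5-fold, was the same under every alternative, and no member and none of the named related genes that were called changed direction. The size of a log2 difference moved with the offset and the tool: SPARC lay between -15.43 (edgeR) and -6.87 (offset of 5 RPM), SMOC1 between 1.80 and 5.155 (DESeq2), SPOCK1 between -5.85 and -3.44, SPOCK3 between -2.23 and -0.88, and FSTL1 between -0.93 and -0.88. With the replicate block 1011 genes were lower, and among related genes 18 were, of them 1 SPARC-bound collagen, 4 proteases, 3 of the FSTL1 and BMP list and 3 matricellular genes. Members' differences are the same in that fit, and the calls it ended among named related genes and markers are given beside them. With an offset of 5 RPM, 1 collagen was lower and 0 of the FSTL1 and BMP list higher, and under quantile normalization 3 collagens were lower and 0 surface partners were higher. With only genes of at least 1 RPM, 7 related genes were higher and 2 collagens lower, and 1 folding gene, 1 protease and 2 follistatin-like genes were higher. edgeR gave these same counts. DESeq2 gave the same counts of higher genes (7, 1, 1 and 2), with 4 collagens lower. Around SMOC1 the median over 50 neighbors was 0.15 (20 neighbors 0.35), around SPARC and SPOCK1 the medians lay on both sides of 0 (-0.04 to 0.07 and -0.14 to 0.02), and by the SD of log2 values SPOCK1 and SPOCK3 in CD90- cells spread more than 95.6% and 88.2% of genes of like level.

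Leaving out each library gave 1868 (without CD90+ replicate 3) to 2414 (without CD90- replicate 1) called genes of 3138, 960 to 1174 higher and 908 to 1240 lower, and 3 to 4 related genes higher and 20 to 25 lower. By list, 2 to 4 collagens, 3 to 5 folding genes, 2 to 3 surface partners, 3 to 6 proteases, 3 to 5 of the FSTL1 and BMP list and 4 to 5 matricellular genes were lower, and 0 to 1 surface partners higher. The cause of these moves was not tested, though a fit without 1 library has fewer samples. For SPARCL1, SMOC2 and SPOCK2, with at most 1 read per library, no difference was detectable at this depth.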

Other observations

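The spread of the members between libraries of 1 line, which had no part in their choice, differed from member to member. In CD90- cells the coefficient of variation (CV) of SPARC was 4.69%, above the 1.31% that counting alone gives and below the median of 11.0% over the 167 genes within 25% of its level, of which 8.98% had a lower CV. FSTL1 was closer to its peers there, at 8.45% beside a median of 11.7%, and at 11.8% beside 9.63% in CD90+ cells. The testicans varied more in CD90- cells. SPOCK1 had a CV of 26.3%, above 92.9% of 1547 genes of like level, with CD90- replicate 1 the low library. SPOCK3 had a CV of 37.5%, above 91.4% of 927 genes, with CD90- replicate 3 the high one. SMOC1 in CD90+ cells had a CV of 25.9%, above 86.2% of 1185 genes. The residual SPOCK1 and SPOCK3 reads in CD90+ cells had a CV of 17.3% and 7.74%, below the 32.2% and 27.05% of counting alone, with 3 libraries behind each.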
